A study of Oryza sativa Indica Group and Oryza sativa Japonica Group with 8 samples.

Results

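Transcript levels in young japonica rice panicles grown at a day average of 28 °C were set against those at 23 °C. The comparison rests on 4 Affymetrix rice arrays, all the japonica arrays among the 8 of the series, chosen by line and temperature from the labels. ZH11 is the japonica wild type, and Os02g12290iL1 is a single japonica line with RNA interference against Os02g12290, which the design text counts with AnS-1 as tms5. Each line had 1 array at 23 °C and 1 at 28 °C, and the panicles were taken from the microspore mother cell stage to meiosis. The other 4 arrays held an indica pair, the wild type AnN and the thermosensitive male sterile AnS-1, at the same temperatures. The promoter of the RNA interference construct, the age and number of plants behind an array and the hour of sampling are not given in the sources used here.

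The panicle is the flowering branch of rice, and at this stage its anthers hold cells entering meiosis, wrapped by the tapetum, a nursing layer that feeds them and later supplies the pollen wall. In lines with the tms5 trait the warmer temperature leads to sterile pollen and the cooler one allows fertile pollen, while the wild types are fertile at both. Warmth reaches transcription in plants through several known routes, among them heat stress factors with their chaperone targets, and the circadian clock, a loop of morning and evening repressors.

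All values below are quantile normalized linear intensities, or differences of log2(intensity + 16) between 28 °C and 23 °C within a line, called changes in level here. Before normalization the median intensities of the japonica arrays lay between 109 and 117, and the median change over the 34316 tested probe sets after it was -0.004 for ZH11 and -0.005 for the RNA interference line (-0.05 and 0.02 with the values as deposited). All 64 control probe sets for foreign reporter genes gave a yardstick for dim signals, with a 95th percentile between 109.5 and 147 on the japonica arrays. Of these, 2 were bright in Os02g12290iL1 alone, and without them, a choice made after seeing the data, it lay between 110.2 and 139. Floral organ genes of the MADS family were bright on all 4 arrays (summed intensity from 49240 to 51950 over 18 probe sets). Of these 18, 1 was under the yardstick on all 4. Tapetum genes summed to 25940 to 40230 over 10 probe sets, but unevenly. C4 had 9410 to 11170, while CP1 was under the yardstick on both Os02g12290iL1 arrays (55.3 and 54.6). C6 had 354 and 1015 in Os02g12290iL1, against 5934 and 5695 in ZH11. Meiosis genes were present (6130 to 7282 over 12), with 4 of 12 probe sets under the yardstick on all 4 arrays. Storage protein genes of the endosperm were under that yardstick on all 4 arrays for 7 of 8 probe sets, the other being 1 of 2 GLUA-2 probe sets. The targeted gene Os02g12290 was not analysed here.

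Differences between the temperatures were about as many as those between the lines. Among the tested probe sets, 329 differed at least 2-fold between the temperatures in ZH11 and 614 in Os02g12290iL1, while 358 differed at least 2-fold between the lines at 23 °C and 587 at 28 °C. Spearman correlations across probe sets were 0.970 and 0.969 between the temperatures of ZH11 and of Os02g12290iL1. Between the lines they were 0.978 at 23 °C and 0.968 at 28 °C. The changes of the lines, which share no array, correlated with Pearson r = 0.34 and had the same sign for 58.8% of probe sets, a description across probe sets with no p.

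With the lines as pairs, limma called 0 of 34316 probe sets (0.0%) at a Benjamini-Hochberg adjusted p under 0.05. The smallest adjusted p was 0.0657, and an unadjusted p under 0.05 was found for 3902 probe sets (11.4%), against the 1716 that chance would give. This test has 1 residual degree of freedom. With a trended and robust prior for the spread, limma called 466 probe sets higher (1.36%) and 468 lower (1.36%) at 28 °C. Nothing in the labels says that the arrays hold separate cultures, so p-values cover just the spread among the arrays, which may be technical in part. In this paired test that spread is how far the changes of the wild type and of the RNA interference line differ. The SD values below measure the same difference. Because no probe set passed the test as planned, the genes below are described by their levels and by how alike the lines were.

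At least 2-fold higher at 28 °C in both lines were 67 probe sets (0.195% of those tested), and 57 (0.166%) were at least 2-fold lower in both. These 67 were 45.9% of the probe sets that were 2-fold higher in ZH11 and 22.9% of those in Os02g12290iL1. For the 57 lower ones the shares were 31.1% and 17.7%. At least 3-fold, 15 probe sets were higher in both (0.0437%) and 8 lower (0.0233%). Only 4 probe sets differed 2-fold in opposite directions. The smaller of the changes of the 2 lines came to 1.001 for the probe set just inside the 2-fold bound on the higher side and 0.9998 for the one just outside, and on the lower side the sizes were 1.002 and 0.9981. Of the 67 higher probe sets 49 had 1 gene (44 genes, 5 with an informative name), and of the 57 lower ones 27 did (23 genes, 5 with an informative name). At least 1 array was under the yardstick for 48 of the 67 and for 23 of the 57 (46 and 20 without the 2 bright controls).

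**Figure D1:**
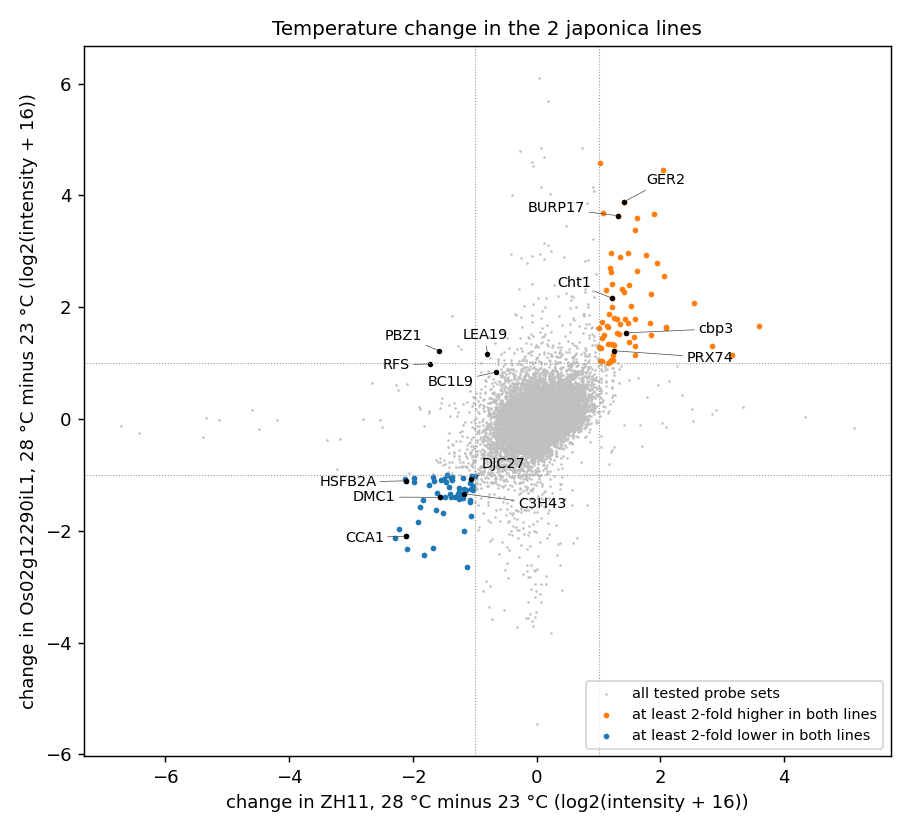
Change from 23 °C to 28 °C in Os02g12290iL1 (vertical axis) against that in ZH11 (horizontal axis), both on the log2(intensity + 16) scale, 1 point for each of 34316 tested probe sets. Orange and blue points mark the 67 and 57 probe sets at least 2-fold higher or lower in both lines, black points the genes named for their size of change, and dotted lines the 2-fold bounds. Points far out along 1 axis and near 0 on the other differed in 1 line alone.

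The gene with the largest decrease in level shared by the lines among those with a name was CCA1 (LOC4344703), also called LHY, a MYB-type repressor that forms the morning arm of the circadian clock. Its intensity was 1051 at 23 °C and 231 at 28 °C in ZH11, and 718 and 156 in Os02g12290iL1. Both lines were thus far lower when warm, by nearly the same amount, with a mean change of -2.10 ± 0.01 (SD, n = 2, limma adjusted p = 0.0657). Another CCA1 probe set was too dim to be tested, with 53.5 and 53.7, and 46.5 and 54.8.

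DMC1 (LOC4351482), the recombinase that pairs homologous chromosomes in meiosis, had 641 at 23 °C and 206 at 28 °C in ZH11, and 649 and 236 in Os02g12290iL1. Warm and cool arrays did not overlap, and the mean change was -1.48 ± 0.12 (SD, n = 2, limma adjusted p = 0.0657). C3H43 (LOC4341164), a CCCH zinc finger protein, went from 667 to 286 in ZH11 and from 712 to 272 in Os02g12290iL1. Its mean change was -1.26 ± 0.11 (SD, n = 2, limma adjusted p = 0.0688).

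DJC27 (LOC4332515), also called ERdj3A, is a DnaJ protein, a class that helps Hsp70 chaperones. It had 1080 at 23 °C and 508 at 28 °C in ZH11, and 1085 and 507 in Os02g12290iL1. The lines were almost equal at each temperature, and the mean change was -1.07 ± 0.01 (SD, n = 2, limma adjusted p = 0.0927). HSFB2A (LOC4336701), a class B heat stress factor, had 774 and 167 in ZH11 and 625 and 282 in Os02g12290iL1. Its decrease was larger in ZH11 (-2.11) than in Os02g12290iL1 (-1.11), with limma adjusted p = 0.133. The other probe set of HSFB2A gave -2.12 and -1.07.

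Among genes higher at 28 °C, cbp3 (LOC4328060) had 1223 at 23 °C and 3351 at 28 °C in ZH11, and 761 and 2246 in Os02g12290iL1. The warm arrays of both lines lay above both cool ones, with a mean change of 1.49 ± 0.07 (SD, n = 2, limma adjusted p = 0.0657). PRX74 (LOC4339222), a class III peroxidase, which oxidises substrates with hydrogen peroxide outside the cell, had 45.8 and 131 in ZH11 and 60.4 and 162 in Os02g12290iL1. Its cool arrays were under the yardstick for dim signals, so its change (1.24 ± 0.02, SD, n = 2, limma adjusted p = 0.0657) depends on the added 16 more than that of brighter genes.

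The other 3 named genes differed more in Os02g12290iL1 than in ZH11, Cht1 the least so, and their level at 23 °C was lower in Os02g12290iL1 than in ZH11. GER2 (LOC4344839), a germin-like protein of the cell wall, had 1123 at 23 °C and 3015 at 28 °C in ZH11, and 295 and 4584 in Os02g12290iL1. BURP17 (LOC4349896), a protein with a BURP domain, had 574 and 1456 in ZH11 and 74.2 and 1105 in Os02g12290iL1. Cht1 (LOC4338719, a name that the reference also lists for CH16), a chitinase, which cuts the chitin of fungal walls, had 212 and 511 in ZH11 and 123 and 608 in Os02g12290iL1. The gap of Os02g12290iL1 to ZH11 on the log2 scale was -1.87, -2.71 and -0.71 at 23 °C, and 0.60, -0.39 and 0.24 at 28 °C. Their limma adjusted p-values were 0.204, 0.206 and 0.117.

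Over all 67 higher probe sets, Os02g12290iL1 lay below ZH11 at 23 °C for 55 (82.1%, against 44.0% of all tested) and at least 2-fold below for 24 (35.8%, against 0.857%). The median gap between the lines was -0.54 at 23 °C and -0.23 at 28 °C. These gaps use the same arrays as the changes. Among the 57 lower probe sets the lines lay closer, with a median gap of 0.10 at 23 °C and 0.19 at 28 °C and 2 probe sets at least 2-fold lower in Os02g12290iL1 at 23 °C.

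Of genes without an informative name, LOC9272344 had 61.3 at 23 °C and 306 at 28 °C in ZH11, and 90.9 and 615 in Os02g12290iL1. LOC4325841 had 106 and 486 in ZH11 and 31.4 and 1022 in Os02g12290iL1. On the lower side, LOC4342135 had 511 and 97.2 in ZH11 and 470 and 108 in Os02g12290iL1, and LOC4324430 had 183 and 46.5, and 245 and 36.6. For these genes 2 of 4 arrays each were under the yardstick. Of the 10 named genes, the trended and robust fit of limma called 7, against 2.72% of all tested. The exceptions were GER2 (limma adjusted p = 0.681), BURP17 (0.679) and HSFB2A (0.0831). That fit called 43 of all 67 higher and 51 of all 57 lower probe sets. All were picked by their change on the same 4 arrays, so these calls add no separate support.

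**Figure D2:**
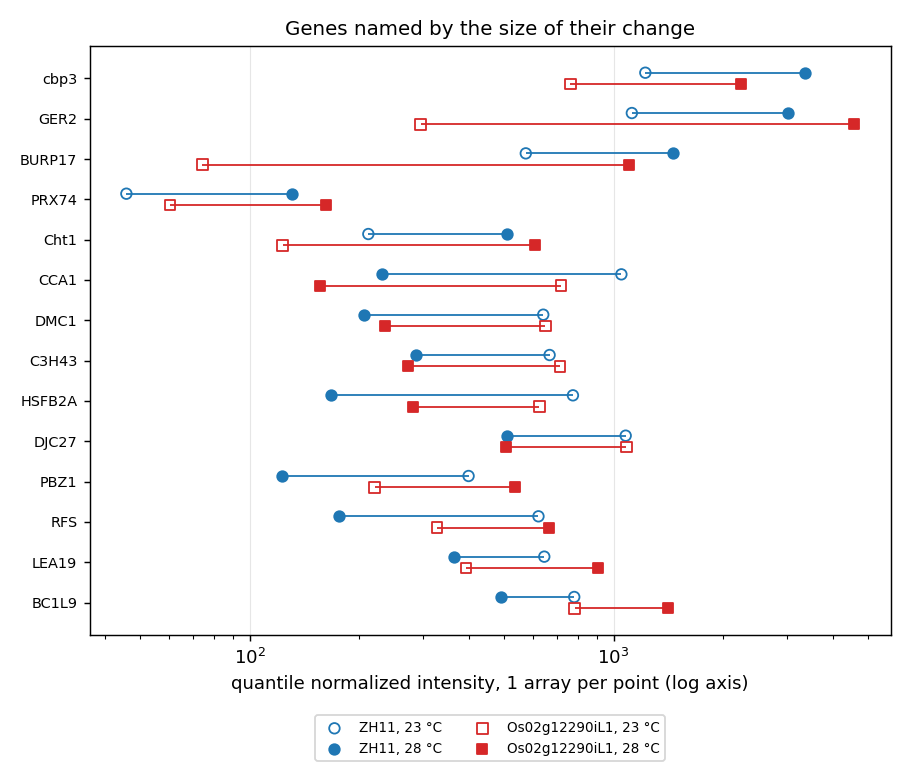
Quantile normalized intensity (log axis) of the 10 named genes at least 2-fold different in both lines and, in the lowest 4 rows, of genes that went opposite ways in the lines. Each point is 1 array, open at 23 °C and filled at 28 °C, circles for ZH11 and squares for Os02g12290iL1. CCA1, DMC1, C3H43, HSFB2A and DJC27 lie lower at 28 °C in both lines, while GER2 and BURP17 start from 295 and 74.2 in Os02g12290iL1 at 23 °C.

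Of the circadian clock, 9 probe sets of 7 genes were tested out of 10 on the array. None passed the limma test and 4 had an unadjusted p under 0.05 (11.4% of all tested). Lower at 28 °C in both lines were 3 probe sets, of CCA1 and PRR37 (30.3% of all tested were lower in both), and 2 were higher in both (28.5% of all tested). The counts of every later list are to be read against the same shares. PRR37 (LOC4344399), also known as DTH7, a pseudo-response regulator that represses flowering in long days, had 240 at 23 °C and 92.9 at 28 °C in ZH11, and 248 and 116 in Os02g12290iL1 on one probe set. Its changes there were -1.23 and -0.997 (limma adjusted p = 0.0929), with 2 arrays under the yardstick. The other PRR37 probe set, which is brighter (1062 and 816, and 1036 and 531), gave -0.37 and -0.94.

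PRR1, an evening repressor of the clock, was slightly higher when warm, with 676 and 907 in ZH11 and 665 and 844 in Os02g12290iL1 (changes of 0.42 and 0.34). PCL1, an evening MYB-type factor, differed between the lines, with 713 and 788 in ZH11 and 578 and 1689 in Os02g12290iL1. GI, PRR73 and PRR95, which act in the day and evening, went opposite ways in the lines. They were higher in ZH11 (0.29, 0.28 and 0.33, with 0.15 for the other PRR73 probe set) and lower in Os02g12290iL1 (-0.20, -0.74 and -0.39, with -0.64). The list's median change was 0.15 in ZH11 and -0.64 in Os02g12290iL1, and the difference between the lines has no test, since each line has 1 array at a temperature. Genes of flowering time and light signalling had 23 tested probe sets, 2 of them at least 1.5-fold lower in both lines (0.857% of all tested) and none higher (0.822%). After PRR37 the larger change was that of Ehd3, an activator of flowering, with 711 and 444 in ZH11 and 850 and 474 in Os02g12290iL1.

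Heat stress factors bind the promoters of chaperone genes, and class A members activate them while class B members lack that activation domain. Of their 29 probe sets 27 were tested (20 genes). None passed the limma test, and 10 had an unadjusted p under 0.05, against 11.4% of all tested. At least 1.5-fold lower in both lines were 5, against 0.857% of all tested, and none was 1.5-fold higher in both, against 0.822%. Their median change was -0.15 in ZH11 and -0.01 in Os02g12290iL1, against -0.004 and -0.005 for all tested probe sets. Besides both HSFB2A probe sets, the 5 were 1 probe set each of HSFA2C, HSFB2C and HSFA2A. HSFA2C had 453 and 259 in ZH11 and 498 and 181 in Os02g12290iL1, and its other probe set gave smaller decreases (-0.43 and -0.83). HSFB2C had 464 and 285, and 541 and 248, but its other probe sets, which are dimmer, gave 0.72 and -0.13, and 0.20 and -0.69. For HSFA2A the probe set with the decrease, as well as the others, had 3 or 4 arrays under the yardstick.

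HSFC1B had the largest mean increase of the tested heat factor probe sets, with 309 and 467 in ZH11 and 160 and 435 in Os02g12290iL1 (changes of 0.57 and 1.36, limma adjusted p = 0.206). HSFA3 (0.44 and 0.39) and HSFA4D (0.39 and 0.36, with 3 arrays under the yardstick) were slightly higher in both lines. HSFA2B, HSFB2B and the dimmer probe set of HSFA2D were lower in both, with changes from -0.72 to -0.14. The remaining members, HSFA1, the bright probe set of HSFA2D, HSFA2E, HSFA4B, HSFA5, HSFA6B, HSFA9, HSFB1, HSFB4B and HSFC2A, had mean changes between -0.41 and 0.11.

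The chaperones differed in direction among themselves. In a list of heat shock proteins and their partners, none of 18 tested probe sets was at least 1.5-fold different in the same direction in both lines. The name patterns of this list do not take in the DnaJ proteins of the DJC class, so DJC27, which was 2-fold lower in both lines, stands outside it. The small heat shock protein hsp17.9 was bright and higher when warm, with 3325 and 4830 in ZH11 and 3084 and 5103 in Os02g12290iL1 (limma adjusted p = 0.165, and 0.000479 with the trended and robust prior). BIP4, an Hsp70 chaperone of the endoplasmic reticulum, had 189 and 301, and 59.7 and 85.6, with 2 arrays under the yardstick. The DnaJ protein DJA6 had 1945 and 2357, and 1690 and 2707. HSP16.9B, another small heat shock protein, was lower, with 169 and 136, and 205 and 147. The median change of the list was 0.03 in ZH11 and -0.08 in Os02g12290iL1, and the sign of its mean over the lines (-0.01) turns under median centring (0.02).

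**Figure D3:**
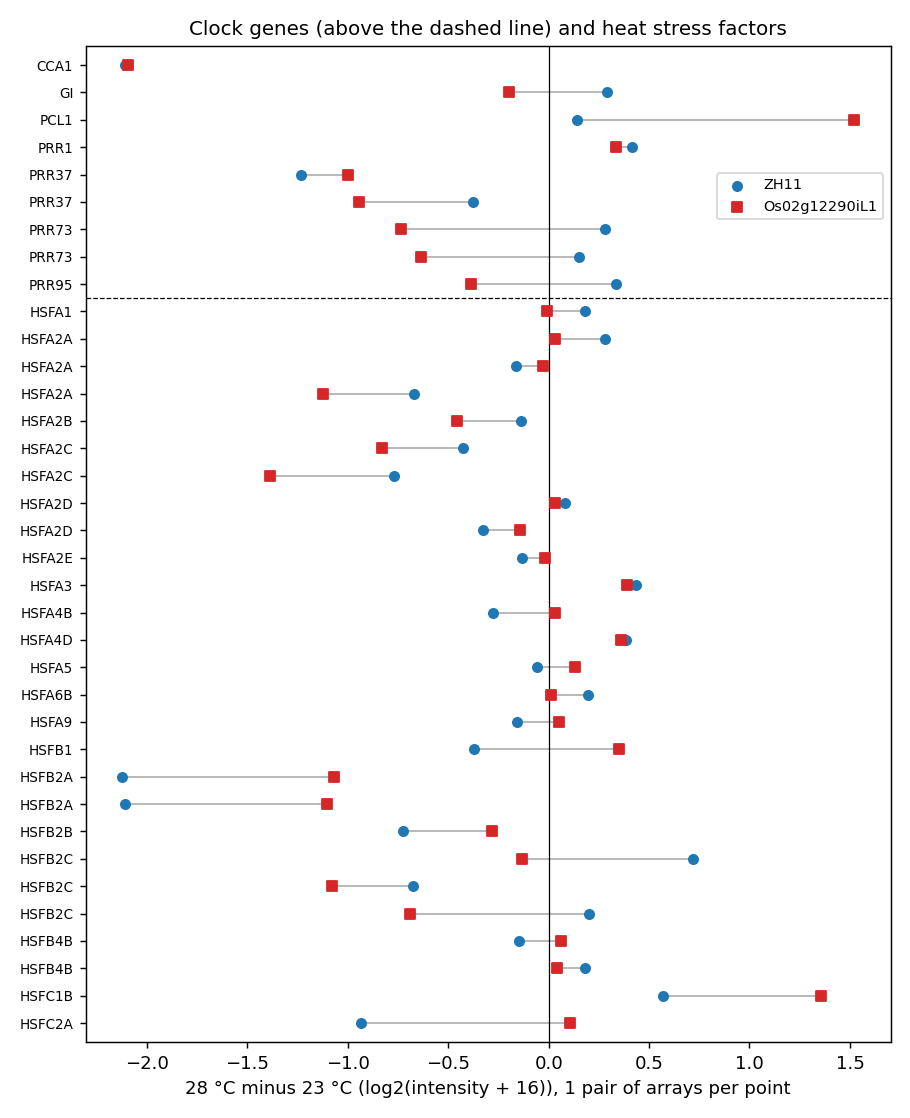
Change from 23 °C to 28 °C on the log2(intensity + 16) scale for each tested probe set of clock genes (above the dashed line) and heat stress factors, circles for ZH11 and squares for Os02g12290iL1, each point from 1 pair of arrays. CCA1 lies at -2.11 and -2.10 and the HSFB2A probe sets between -1.07 and -2.12, while most factors stay within 0.5 of 0.

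Chitinases and pathogenesis-related proteins, which plants make against fungi, had 14 tested probe sets out of 18, and 8 were higher at 28 °C in both lines and 1 was lower (28.5% and 30.3% of all tested). None passed the limma test, 3 had an unadjusted p under 0.05, and 2 were at least 1.5-fold higher in both lines. The median change was 0.06 in ZH11 and 0.66 in Os02g12290iL1. After Cht1, the gene named chitinase LOC4348631 had 175 and 300 in ZH11 and 150 and 272 in Os02g12290iL1 (limma adjusted p = 0.118). Chia1d was bright and differed little, with 5553 and 6422, and 4927 and 6065.

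Jasmonate, the wounding and defence hormone that also opens anthers, had 31 tested probe sets, 14 higher in both lines and 5 lower (28.5% and 30.3% of all tested). JAZ8, a repressor of the jasmonate response, had 1749 and 2936 in ZH11 and 1141 and 2170 in Os02g12290iL1 (limma adjusted p = 0.114). PXG, a peroxygenase of oxidised lipids, had 438 and 766 in ZH11 but 56.6 and 501 in Os02g12290iL1. JAMYB, a MYB factor of the jasmonate response, had 117 and 175, and 24.7 and 77.9. The lowest value of each fell on the cool array of Os02g12290iL1, as for GER2 and BURP17, and 3 arrays of JAMYB were under the yardstick.

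Cold and dehydration response genes had 24 tested probe sets out of 33, with 4 higher and 4 lower in both lines. At least 1.5-fold, 2 were higher in both (0.822% of all tested) and 0 lower (0.857%). The medians were -0.23 in ZH11 and 0.28 in Os02g12290iL1. The mannose-binding lectin salT had 2415 and 4273 in ZH11, and 287 and 4382 in Os02g12290iL1. The dehydrin RAB21 had 2463 and 221 in ZH11, and 1380 and 1064 in Os02g12290iL1, so its decrease was almost wholly that of ZH11. DREB1G, a cold response factor, had 106 and 123, and 169 and 302, and MYBS3, a MYB factor, 654 and 869, and 621 and 809. The metallothionein MT-1, a metal-binding protein, followed salT, with 1356 and 1599 in ZH11 and 151 and 1326 in Os02g12290iL1. WRKY factors (6 tested) and NAC factors (8 tested) had no member 1.5-fold different in the same direction in both lines.

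Photosynthesis genes were lower in both lines at 28 °C for 14 of 21 tested probe sets and higher in both for 0, against 30.3% and 28.5% of all tested. Their median change was -0.13 in ZH11 and -0.29 in Os02g12290iL1. None passed the limma test, 6 had an unadjusted p under 0.05, and 1 was at least 1.5-fold lower in both lines. It was LHCP, a protein that gathers light with chlorophyll, with 1023 and 583 in ZH11 and 974 and 268 in Os02g12290iL1 (limma adjusted p = 0.173). PSAG of photosystem I had 458 and 330, and 383 and 226. PORA, an enzyme of chlorophyll synthesis, had 547 and 317, and 476 and 365. In the marker set for green tissue, which overlaps with the list, the summed intensity over 13 probe sets was 10150 and 8559 in ZH11 and 9359 and 5081 in Os02g12290iL1, with 8 of 13 lower in both lines, 0 higher and 4 under the yardstick on all arrays. The markers were not alike in Os02g12290iL1, where the CAB2R probe sets had 4234 and 2030, and 1539 and 478. There the RBCS probe sets over the yardstick on all arrays had 185 and 212, and 254 and 250. Those of RA had 212 and 214, and 214 and 244. In ZH11 all of these were lower at 28 °C. In bulk tissue fewer green cells and less RNA per cell cannot be told apart, and the part of green tissue in other results was not tested.

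Meiosis genes had 25 tested probe sets, of which 11 were higher and 7 lower in both lines, with medians of 0.19 in ZH11 and -0.10 in Os02g12290iL1. DMC1 alone was 1.5-fold different in both. RPA32B, which coats single-stranded DNA, had 815 and 1017, and 818 and 1156. SPO11B, which helps to cut chromosomes for recombination, and SDS, a meiotic cyclin, had all arrays under the yardstick on the probe sets ranked first. A brighter SPO11B probe set had 356 and 393, and 377 and 456. The summed intensity of the meiocyte markers was 6641 and 6130 in ZH11 and 7282 and 6333 in Os02g12290iL1, or log2 ratios of the sums of -0.12 and -0.20, far smaller in size than the changes of DMC1. Without DMC1, itself one of these markers, the ratios were -0.02 and -0.12.

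Tapetum and pollen wall genes had 15 tested probe sets, 2 higher and 8 lower in both lines and none 1.5-fold different in both. PTC1, a PHD-finger regulator of tapetal cell death, had 662 and 447 in ZH11 and 303 and 159 in Os02g12290iL1. BURP13, also called RAFTIN1, a protein carried from the tapetum to pollen, was higher when warm, with 2920 and 3833, and 2104 and 3411. The marker sum of the tapetum was 40230 and 39510 in ZH11 and 30010 and 25940 in Os02g12290iL1. Its log2 ratio of 28 °C to 23 °C was -0.03 in ZH11 and -0.21 in Os02g12290iL1. CYP703A3, an enzyme of pollen wall synthesis, made up most of the latter, with 4140 and 668 in Os02g12290iL1, and without it the ratios were -0.02 and -0.03. MADS-box factors had 14 of 27 probe sets lower in both lines and 5 higher, all by small amounts, the first by rank being MADS22 with 1579 and 1213, and 1746 and 1294.

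Cell cycle and DNA replication genes had 24 higher and 24 lower of 80 tested probe sets, and 1 was 1.5-fold lower in both lines. CDKE-1, a cyclin-dependent kinase, had 407 and 148 in ZH11 and 519 and 258 in Os02g12290iL1 (limma adjusted p = 0.0992). KRP6, an inhibitor of such kinases, was higher, with 297 and 411, and 185 and 314. Kinesins (34 tested) and chromatin genes (18) had no member past 1.5-fold in both lines, and the chromatin gene first by rank was the histone deacetylase HDAC3, with 587 and 453, and 681 and 362.

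Sugar transport and metabolism genes were lower in both lines for 26 of 48 tested probe sets and higher for 10, against 30.3% and 28.5% of all tested. None passed the limma test, 15 had an unadjusted p under 0.05 (11.4% of all tested), 2 were 1.5-fold lower in both lines and 1 was higher. MtN3-like, of a family of sugar exporters, had 514 and 271 in ZH11 and 556 and 271 in Os02g12290iL1. The sucrose synthase SUS3 had 375 and 211, and 496 and 314, and the hexokinase HXK2 429 and 286, and 451 and 268. MST3, a monosaccharide importer, went the other way, with 219 and 426 in ZH11 and 54.1 and 638 in Os02g12290iL1. Starch genes had 8 lower and 1 higher of 20 tested probe sets. Among them the starch synthase GBSS1 had 126 and 70.7, and 133 and 75.8, under the yardstick on all arrays, and a brighter GBSS1 probe set had 301 and 218, and 270 and 218.

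The water channel PIP2-4 had 2750 at 23 °C and 1565 at 28 °C in ZH11, and 2797 and 1269 in Os02g12290iL1 (limma adjusted p = 0.111), the only 1 of 23 tested aquaporin probe sets past 1.5-fold in both lines. Metal transporters (41 tested) had 9 higher and 16 lower, with COPT1, a copper importer, at 1152 and 870, and 1224 and 593, and VIT2, an iron transporter of the vacuole, at 1044 and 758, and 1031 and 504. Of nitrogen and phosphate genes (28 tested), the glutamine synthetase GLN1-3 had 2743 and 1864, and 2479 and 1221. The antioxidant list (61 tested) had 17 higher and 19 lower. After PRX74, the glutaredoxin GRXC7 had 2188 and 1295, and 2251 and 1571, and GRXS2 had 554 and 355, and 594 and 354. Glutathione S-transferases (6 tested), metallothioneins (14), expansins (24), lipid transfer genes (14) and flavonoid genes (4) had no member past 1.5-fold in both lines. Cell wall enzymes had 20 higher and 8 lower of 49, with PAL, the entry enzyme of lignin and phenolics, at 1451 and 2159, and 1221 and 1822.

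**Figure D4:**
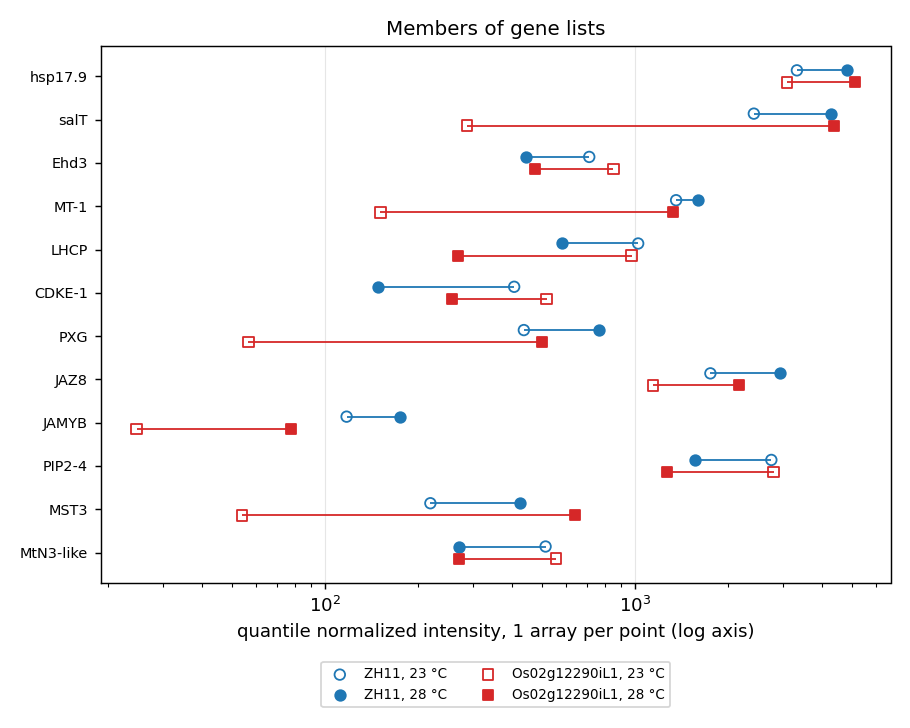
Quantile normalized intensity (log axis) of 12 genes from the lists, picked for display from the top ranks after their values were seen. Each point is 1 array, open at 23 °C and filled at 28 °C, circles for ZH11 and squares for Os02g12290iL1. salT, MT-1, PXG and MST3 are low in Os02g12290iL1 at 23 °C alone (54.1 to 287), while Ehd3, LHCP, CDKE-1, PIP2-4 and MtN3-like lie lower at 28 °C in both lines.

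Among hormones, cytokinin genes were higher in both lines for 14 of 31 tested probe sets and lower for 6, with medians of 0.10 in ZH11 and 0.04 in Os02g12290iL1. LOGL9, which by its family activates cytokinins, had 119 and 214, and 90.4 and 187 (limma adjusted p = 0.111), with 2 arrays under the yardstick. Auxin genes had 21 higher and 19 lower of 61, which is near the 28.5% and 30.3% of all tested, and 15 had an unadjusted p under 0.05 (11.4% of all tested). The auxin repressors IAA18 (331 and 524, and 281 and 585) and IAA1 (2208 and 3179, and 1969 and 3157) were higher. The transport protein PIN4 (143 and 95.2, and 126 and 77) was lower, with 3 arrays under the yardstick. Gibberellin genes had 2 higher and 7 lower of 12, led by CYP701A19 with 491 and 240, and 469 and 290. Abscisic acid genes had 8 higher and 6 lower of 23, with the kinase SAPK10 at 456 and 632, and 468 and 740. Ethylene (13 tested) and brassinosteroid genes (14) had no member past 1.5-fold in both lines.

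The basal machinery of the cell differed little. The ubiquitin-L40 genes, whose product is ubiquitin joined to a ribosomal protein, are the group linked to RNase ZS1, the product of the tms5 locus. Ub-CEP52-1 had 6065 at 23 °C and 5841 at 28 °C in ZH11, and 6153 and 5934 in Os02g12290iL1, a mean change of -0.05 ± 0.00 (SD, n = 2, limma adjusted p = 0.887). Ub-CEP52-2 had 4268 and 4291, and 4491 and 4145 (limma adjusted p = 0.889). Of 26 proteasome and ubiquitin probe sets 13 were lower and 1 higher in both lines, with changes of the list between -0.14 and 0.02. Of 39 ribosomal protein probe sets 23 were lower and 6 higher, with a median change of -0.06 (-0.05 in ZH11 and -0.07 in Os02g12290iL1).

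Small RNA genes had 19 lower and 5 higher of 31 tested probe sets, against 30.3% and 28.5% of all tested, with medians of -0.02 in ZH11 and -0.18 in Os02g12290iL1. AGO2 had 1609 and 1117, and 1594 and 904, and AGO1D 4535 and 3555, and 4767 and 3552, both slicer proteins that small RNAs guide. RNA processing genes had 6 higher and 6 lower of 19. The CCCH zinc finger list had 18 higher and 20 lower of 59, with C3H43 the only member past 1.5-fold in both lines. Over the 1021 tested probe sets in at least 1 list, 10 were 1.5-fold higher in both lines (0.979%) and 18 lower (1.76%), against 0.822% and 0.857% of all tested. The trended and robust prior of limma gave 45 calls among them (4.41%, against 2.72%).

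**Figure D5:**
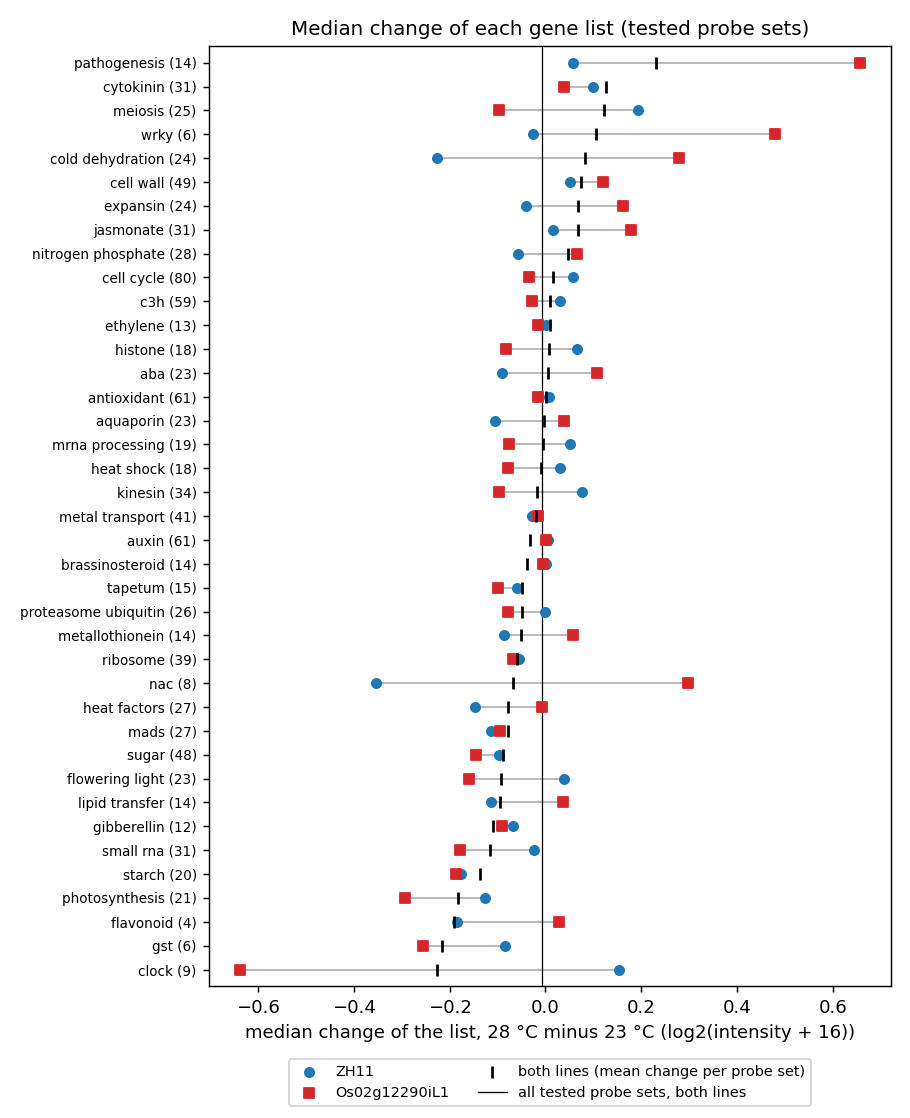
Median change from 23 °C to 28 °C on the log2(intensity + 16) scale of the 39 gene lists, with the number of tested probe sets in brackets, circles for ZH11, squares for Os02g12290iL1 and ticks for the median of the mean over both lines. The vertical line is the median of all tested probe sets (-0.01). Clock, NAC, cold and dehydration, pathogenesis and WRKY lists show the widest gaps between the lines.

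Some probe sets differed between the temperatures mainly on the arrays of 1 line. At least 2-fold different in 1 line while under 1.5-fold in the other were 32.2% of the probe sets 2-fold higher in ZH11 and 36.6% of those lower. In Os02g12290iL1 the shares were 48.6% and 62.4%. This difference between the lines was not tested. PBZ1, a pathogenesis-related protein of the PR10 family, had 400 at 23 °C and 123 at 28 °C in ZH11, and 221 and 536 in Os02g12290iL1. RFS, a raffinose synthase gene, had 622 and 176, and 328 and 664. LEA19, a late embryogenesis abundant protein that guards dry cells, had 645 and 365, and 393 and 906, and BC1L9, a COBRA-like protein of the cell wall, 780 and 491, and 781 and 1413. All 4 were lower when warm in ZH11 and higher in Os02g12290iL1. Besides PBZ1 the 4 probe sets with opposite 2-fold changes, named after their values were seen, were LOC4325067 (1479 and 623, and 395 and 967) and a pair without a gene here.

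The indica arrays were compared only as a side result, because their values at the 2 temperatures had been deposited on different scales. Of the 57 probe sets 2-fold lower in both japonica lines, 39 (68.4%) were lower in both indica lines too, against 48.4% of all tested. At least 2-fold lower in both indica lines were 11 of the 57, against 1368 of all 34316 tested. Of the 67 higher ones 23 (34.3%) were higher in both indica lines, against 34.6% of all tested. At least 2-fold higher there were 10 of the 67, against 2727 of the 34316. CCA1 had 2843 and 234 in AnN and 1910 and 276 in AnS-1, and DMC1 413 and 180, and 352 and 187, so both were lower when warm in all 4 lines. DJC27 had 647 and 619, and 673 and 632 in the indica lines, against a mean change of -1.07 in japonica, and cbp3 was lower there when warm (2326 and 1437, and 998 and 965). The difference of the temperature change between japonica and indica passed the limma test for 7960 probe sets (23.2%). With a line left out, its background held 1 array a temperature, so no count is given. For DJC27 the difference of the changes was -0.99 (limma adjusted p = 0.0130) and for cbp3 1.86 (limma adjusted p = 0.0122).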

How the data were processed

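RNA of young panicles had been hybridised to 8 Affymetrix arrays of 57258 probe sets. The deposited values are linear intensities. The submitters' processing notes name the programs Affymetrix Expression Console and RMA. Since RMA usually gives log2 values, the linear unit rests on the values themselves. No version and no way of scaling are given in the sources used here. All 8 arrays were quantile normalized, 64 control probe sets for foreign reporters were left out (57194 remain), and log2(intensity + 16) was analysed, a scale on which changes of dim probe sets come out too small. Tests covered the 34316 probe sets in the upper 60% of mean level on the 4 japonica arrays. They used limma 3.58.1 under R 4.3.3, line being the block and temperature the factor (1 residual degree of freedom, prior degrees of freedom 4.04). The pairs come from the labels, since both arrays of a pair are the same line. The difference from indica came from a fit to all 8 arrays (2 residual degrees of freedom). P-values are two-sided. The scripts were checked on simulated data. The number of arrays limits the precision.

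A table paired 22436 probe sets with 1 gene, 95 with several and 34663 of those analysed with none. All 22436 were found in the RefSeq gene table, used for names only. Because most of its symbols are LOC numbers, names were taken from its synonyms, which can be shared by genes, and 3149 probe sets had an informative name. List members were matched by name patterns, after which 174 wrong matches were left out by annotation alone. The members, lists and rules were chosen with earlier results of these data known.

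Per direction, up to 14 named genes that passed the test, then those at least 2-fold different in both lines, were ranked by the smaller change of the lines. Each list gave up to 4 members by the same ranking, not all of which are printed. All clock and heat factor members, the ubiquitin-L40 genes, up to 2 genes per direction without a name and up to 4 opposite ones were added. Alternatives were the deposited values, quantiles over 4 arrays, median centring, other filters and pseudocounts, a trended and robust prior, no replicate block, all 8 arrays with and without weights, 1 probe set per gene, other folds and leaving out each line.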

Additional observations from a re-analysis of the deposited data

Results flagged for a closer look

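Of the genes named above, 4 went opposite ways in the lines, which was not tested. The change was -1.58 in ZH11 and 1.22 in Os02g12290iL1 for PBZ1, -1.73 and 0.99 for RFS, -0.80 and 1.17 for LEA19, and -0.65 and 0.84 for BC1L9.

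The temperature change of japonica minus that of indica passed the limma test of the difference for the probe sets below, in a contrast in which the indica temperatures and the scales of the indica arrays cannot be told apart. It was 1.86 for cbp3, 2.84 for LOC9272344, 3.77 for LOC4325841, 0.73 for PRR1, 1.80 for PRR95 and 0.89 for a probe set of HSFB4B, all with a more positive change, not a higher level, in japonica. Of the opposite genes it was -3.97 for PBZ1 and -2.30 for BC1L9 (limma adjusted p = 0.0420 and 0.0399). It was -0.99 for DJC27, -3.22 for LOC4324430, -1.61 and -1.19 for 2 of the HSFB2C probe sets, -0.82 for HSFB2B, -1.86 for HSFC1B and -1.66 for a probe set of HSFA2C. Among other list members it was -1.14 for hsp17.9, -3.80 for HSP16.9B, -2.58 for DREB1G, -3.85 for PTC1, -1.04 for HDAC3 and 1.73 for VIT2. It was -0.999 for AGO2, -1.15 for PIN4, -1.44 for the chitinase LOC4348631 and -1.38 for PAL. With either japonica line left out, japonica held 1 array a temperature, so these differences have no check by leaving out a line.

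Among the 64 control probe sets for foreign reporters, 2 were bright on both Os02g12290iL1 arrays and dim on both ZH11 arrays. One had 2281 at 23 °C and 2836 at 28 °C in Os02g12290iL1, against 54.5 and 54.7 in ZH11. The other had 3075 and 3222, against 30.3 and 18.5. The highest value of any other control probe set on the japonica arrays was 358.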

How the results depend on the processing

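The test has 1 residual degree of freedom. Calls higher and lower numbered 0 and 0 as planned (prior degrees of freedom 4.04), 466 and 468 with the trended and robust prior (11.4), 66 and 69 with no filter (5) and 1122 and 906 with median centring (204), and the cause of the last 2 moves was not tested. No calls came from the deposited values, quantiles over the japonica arrays, other filters, pseudocounts, 1 probe set per gene or all 8 arrays. With either line left out 1 array a temperature remained, the lone line being taken to vary like the indica lines, so no count is given. Without the replicate block calls were 0 and 0 again, so the counts cannot show what the pairing by line does. Without that block the limma adjusted p was 0.178 for CCA1 and 0.255 for cbp3, against 0.0657 for each with it. Probe sets 2-fold higher and lower in both lines numbered 67 and 57, against 41 and 34 with a pseudocount of 64, 41 and 22 with 1 probe set per gene, 282 and 294 at 1.5-fold and 15 and 8 at 3-fold. In 1 line alone, the other left out, they numbered 146 to 292 and 183 to 322. The japonica against indica difference called 7960 probe sets, against 24709 with the values as deposited and 14983 with no filter, and with a line left out it called 0 to 8807. Among 186 named probe sets the mean change kept its sign in every setting with both lines, except PRR95. The median of 9 of 39 lists took both signs across the scalings (heat shock, metal transport, antioxidant, kinesin, auxin, ethylene, brassinosteroid, aquaporin and RNA processing). Signal near the controls limits dim probe sets such as that of PRX74.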

Other observations

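On 1 of the 4 japonica arrays some probe sets stood at least 4-fold above the other 3, for 13 probe sets on ZH11 at 23 °C, 8 on ZH11 at 28 °C, 9 on Os02g12290iL1 at 23 °C and 19 on Os02g12290iL1 at 28 °C. At least 4-fold below the other 3 stood 0, 1, 22 and 47. One of the 4 CYC07 probe sets, a ribosomal protein gene, had 5674 on ZH11 at 23 °C and 147, 109 and 107 on the other 3 japonica arrays. The other CYC07 probe sets differed little, with 3754, 3427, 3782 and 3365 on one of them. That value alone gives the lowest change of the ribosomal list (-2.57).

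In genes that differed in 1 line alone, some named genes were picked after their values were seen. In Os02g12290iL1, the chitinase gene CH16 (57.9 and 1288) and Chib3H-a (56.2 and 530), listed as a chitinase too, were higher when warm, against 410 and 434, and 520 and 491 in ZH11. The pollen wall gene CYP703A3 (4140 and 668) and the cyclin CycB1-1 (1016 and 197) were lower, against 6078 and 5733, and 1122 and 1041 in ZH11. In ZH11, the starch-degrading enzyme AMY3D was lower when warm (615 and 118), against 254 and 370 in Os02g12290iL1. None of these passed the limma test of the mean change over both lines (adjusted p from 0.464 to 0.658). That test takes the difference between the lines as its spread, so it cannot judge a change in 1 line alone.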
